A study of Mus musculus with 8 samples.

Results

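The collagen chains were examined in the epididymal fat pad, a visceral white fat depot, of mice with and without the succinate receptor SUCNR1. Members were all genes whose symbol is Col, a number, the letter a and a number. They made up 42 of the 18820 genes measured. The mouse gene table used for names holds 44 such symbols. *Col7a1* and *Col9a3* share their probe sets with another gene and were not analysed here. The tissue came from 4 wild-type (WT) and 4 *Sucnr1*-/- male mice on a C57BL/6 background, born to intercrossed heterozygotes. All 8 mice had eaten a semi-synthetic low-fat diet (LFD) for 16 weeks from an age of 8 to 10 weeks, and were 24 to 26 weeks old when tissue was taken. In the *Sucnr1*-/- mice a cassette with *lacZ* and a neomycin resistance gene replaces a large part of exon 2, in all cells and from birth, so the controls differ by this allele but not by diet. Each mouse gave 1 Affymetrix Mouse Gene 1.1 ST array, which reads several probes along each transcript. Values are log2 expression, so a difference of 1 is a doubling of signal.

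Collagens are extracellular matrix proteins built from chains wound around each other into a helix. Fibrillar chains form the cables that give tissue its tensile strength, type IV chains form the sheet-like network of basement membranes, and type VI chains form beaded filaments around cells. In white fat each adipocyte sits in its own basement membrane within a mesh of type VI and fibrillar collagen, made largely by stromal cells and by adipocytes themselves. Collagen deposition in fat is a known feature of obesity, and the matrix limits how far adipocytes can expand.

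*Sucnr1* itself lay between 8.68 and 9.78 in the WT mice and between 5.41 and 7.11 in the *Sucnr1*-/- mice, a log2 difference of −3.05 (SE 0.36, limma, adjusted p = 0.321), so the arrays matched their labels and even this gene did not pass after adjustment. Array medians lay between 6.28 and 6.36. Adipocyte markers were high in all mice, with *Adipoq* between 13.17 and 13.35. The mean of 6 measured epididymis markers lay between 4.45 and 4.88 in WT and between 4.51 and 4.57 in *Sucnr1*-/- mice. WT replicate 2 was the highest mouse. Its *Lcn8* was at 5.96, against 4.39 to 4.65 in the other mice, and its *Adam7* at 4.56, against 3.79 to 4.10. *Spint4* was also highest in that mouse, and *Lcn5*, *Defb1* and *Cdh16* were not. Macrophage markers had lower means in *Sucnr1*-/- mice for 8 of 8 genes, with a median log2 difference of −0.38, whereas 5 of 8 fibroblast and progenitor markers and 6 of 8 endothelial markers did. In whole tissue, fewer cells of a type and less RNA per cell cannot be told apart.

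Most collagen chains had small differences between genotypes. *Col6a5* had the lowest difference and *Col15a1* the highest. The groups did not overlap for *Col6a5* and overlapped for *Col15a1*. No chain passed the test adjusted over all genes, a limit that no gene reached, *Sucnr1* included, so it cannot show that chains did not differ. The means of 30 chains were higher and those of 12 lower in *Sucnr1*-/- mice. Over all genes 53.2% had a higher mean. Taken as *Sucnr1*-/- minus WT, log2 differences had a median of 0.09 over the chains and 0.01 over all genes. Differences ran from −0.70 for *Col6a5* to 0.38 for *Col15a1*. At an adjusted p under 0.05 (limma, Benjamini-Hochberg over all 18820 genes) 0 chains passed, the same as for the whole array (0.0% of genes). The smallest adjusted p of a chain was 0.712. Before adjustment 5 chains lay under 0.05, with limma and with the methods' t-test. These were *Col10a1*, *Col15a1*, *Col13a1* and *Col5a3*, with higher means, and *Col6a5*, with a lower one. *Col5a3* was no longer under the limit in 6 of 17 alternative fits, namely the intensity-dependent prior, the replicate block and without WT replicate 2 or 4 or *Sucnr1*-/- replicate 2 or 4. *Col13a1* was not under it in 4 of the 16 alternative fits that tested it, namely the replicate block and without WT replicate 3, *Sucnr1*-/- replicate 1 or replicate 1 of both groups. The other 3 chains stayed under it in each alternative fit that tested them. The share of all genes under that limit was 6.82%, with 3.46% higher and 3.36% lower. The 95% interval of the difference (limma) lay within 1 log2 unit of 0 for 40 of the 42 chains and within 0.5 for 37. *Col6a5* and *Col12a1* had the wider intervals. These are intervals of array signal, which can move less than the transcript where signal is low.

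**Figure D1:**
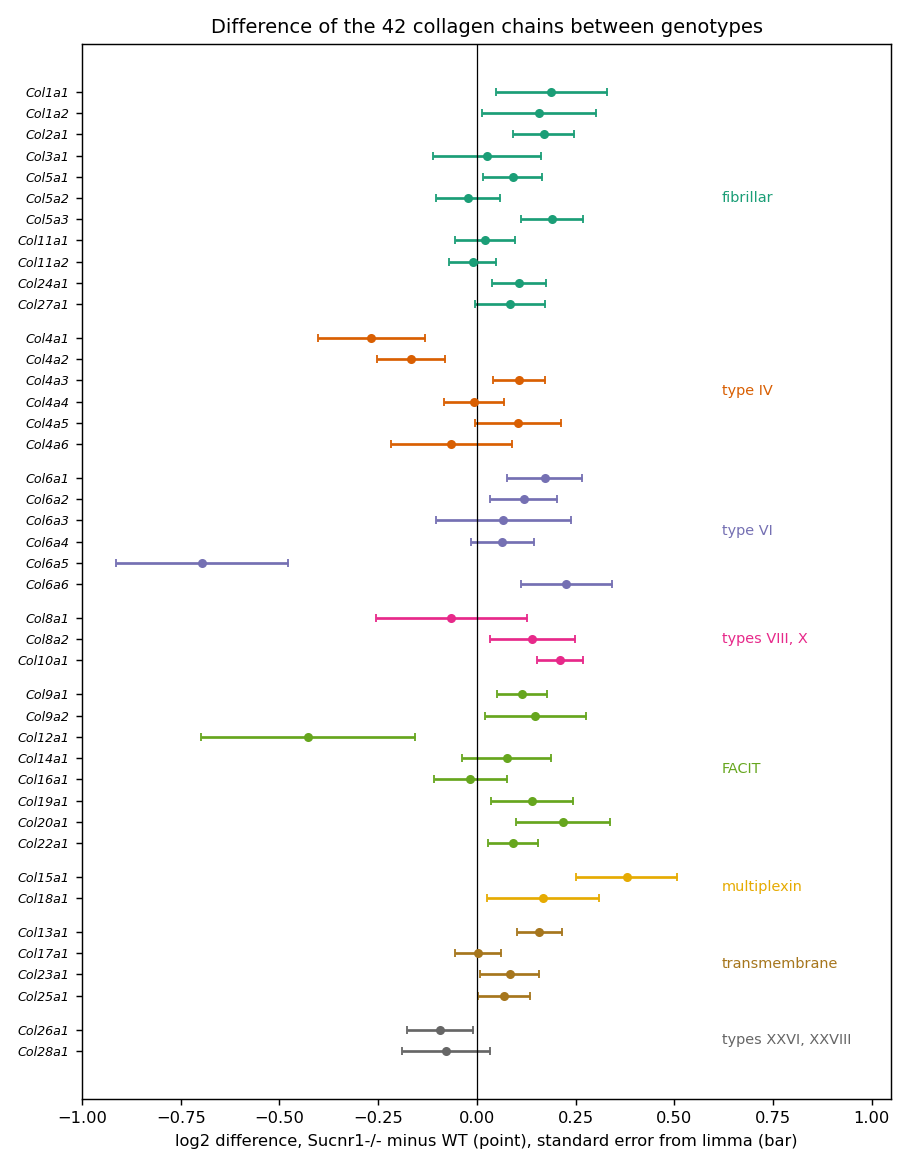
Log2 difference between *Sucnr1*-/- and WT mice (horizontal axis, point) with the standard error from limma (bar) for each of the 42 collagen chains (rows), coloured by structural class, with 4 mice per genotype. *Col6a5* (−0.70), *Col12a1* (−0.43) and *Col4a1* (−0.27) lie farthest to the left, and the other chains lie between −0.17 (*Col4a2*) and 0.38 (*Col15a1*).

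Taken over all 42, the chains varied between mice about as much as other genes did. The median SD over chains was 0.11 among the WT and 0.13 among the *Sucnr1*-/- mice, against 0.13 and 0.12 over all genes. For the 14 chains in the dimmest 40% of genes it was 0.09 and 0.10, against 0.11 and 0.12 over all such genes. For the 28 brighter chains it was 0.14 and 0.16, against 0.15 and 0.12 over all brighter genes. *Sucnr1*-/- replicate 4 had the highest value of all 8 mice for 19 of the 42 chains and the lowest for 0. Its median chain lay 0.15 above the WT mean. *Sucnr1*-/- replicates 2 and 3 lay 0.09 above it, and replicate 1 was at −0.01. The WT mice lay between −0.04 and 0.07, so by these medians the genotypes overlapped through *Sucnr1*-/- replicate 1 alone. By the mean over chains *Sucnr1*-/- replicates 2 and 3 were at 0.03 and 0.04, under WT replicate 2 at 0.06. Array signal also moved with brightness in replicate 4 of the *Sucnr1*-/- group. The 40% of genes with the lowest mean signal lay on average 0.06 above the WT mean in this mouse, and the other genes −0.06 from it. Of the chains, 14 belonged to that dimmer part of the array and 11 of them had a higher mean in *Sucnr1*-/- mice (78.6%), where 63.9% of all dim genes did. Among the 28 brighter chains 19 had a higher mean (67.9%), where 46.0% of all brighter genes did. The part of signal brightness in these counts was not tested. Without *Sucnr1*-/- replicate 4 the median difference of the chains was 0.06, with 30 higher.

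**Figure D2:**
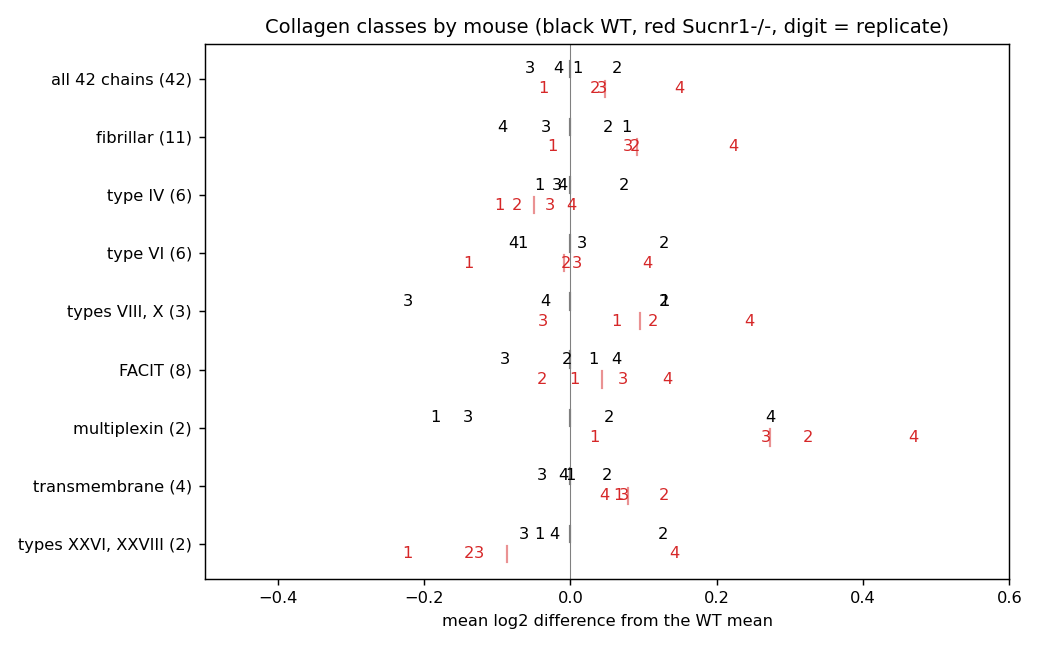
Mean log2 difference from the WT mean (horizontal axis) over all chains and over each structural class (rows, number of chains in brackets), where each black digit is a WT and each red digit a *Sucnr1*-/- mouse named by its replicate number, and bars are group means. *Sucnr1*-/- mouse 4 lies farthest to the right over all 42 chains (0.15), while the other *Sucnr1*-/- mice fall among the WT mice.

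Fibrillar chains, the bulk of fibrous matrix, had slightly higher means in 9 of 11 cases, with a median log2 difference of 0.09. *Col1a1*, the major chain of type I collagen, was at 9.29, 9.29, 9.16 and 8.86 in WT replicates 1 to 4 and at 9.07, 9.28, 9.35 and 9.66 in the *Sucnr1*-/- mice. WT replicates 1, 2 and 3 and *Sucnr1*-/- replicates 1 and 2 lay in the stretch that the groups shared, and *Sucnr1*-/- replicate 4 lay highest. Its log2 difference was 0.19 (SE 0.14, limma, adjusted p = 0.761), with a 95% interval from −0.13 to 0.51. It was 0.082 without *Sucnr1*-/- replicate 4 and 0.091 without WT replicate 4. *Col1a2*, which supplies the remaining chain of the type I molecule, was at 9.59, 9.82, 9.59 and 9.36 in WT and at 9.40, 9.75, 9.78 and 10.05 in *Sucnr1*-/- mice. The same mice were lowest and highest as for *Col1a1*, namely WT replicate 4 and *Sucnr1*-/- replicate 4. Its difference was 0.16 (SE 0.14, limma, adjusted p = 0.791), and it was 0.057 without *Sucnr1*-/- replicate 4, 0.082 without WT replicate 4 and 0.27 without *Sucnr1*-/- replicate 1. *Col3a1*, the chain of reticular fibres, was at 9.51, 9.48, 9.35 and 9.08 in WT and at 9.04, 9.45, 9.46 and 9.57 in *Sucnr1*-/- mice. WT replicate 4 and *Sucnr1*-/- replicate 1 were low, and the other 6 mice lay close together. The difference was 0.03 (SE 0.14, limma, adjusted p = 0.965, 95% interval from −0.28 to 0.34), and it was −0.067 without WT replicate 4.

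Type V chains are built into type I fibrils and limit their thickness. *Col5a3*, one of them, was at 7.35, 7.10, 7.31 and 7.19 in WT and at 7.37, 7.45, 7.34 and 7.55 in *Sucnr1*-/- mice. WT replicate 1 reached just above the lowest *Sucnr1*-/- mouse, and otherwise the groups were apart. Its log2 difference was 0.19 (SE 0.08, limma, adjusted p = 0.715), and the exact two-sided permutation test over mice gave p = 0.0571. *Col5a1*, which most type V molecules contain, was at 7.50, 7.40, 7.50 and 7.52 in WT and at 7.45, 7.58, 7.53 and 7.74 in *Sucnr1*-/- mice, a difference of 0.09 (SE 0.07) that was 0.035 without *Sucnr1*-/- replicate 4. The third chain, *Col5a2*, was at −0.02 (SE 0.08). The fibrillar chains of cartilage, *Col2a1*, *Col11a1* and *Col11a2*, had mean signals between 5.82 and 6.49, near the middle of the array, and differed by 0.17 (SE 0.08), 0.02 (SE 0.08) and −0.01 (SE 0.06). The cartilage matrix genes *Acan* and *Matn1* had means between 4.31 and 4.36, with 13.2% and 12.6% of genes dimmer. *Col24a1* and *Col27a1*, less abundant fibrillar chains, differed by 0.11 (SE 0.07) and 0.08 (SE 0.09).

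Among the 6 type IV chains the 2 that form most basement membranes had lower means in *Sucnr1*-/- mice, and neither passed the test. *Col4a1* was at 10.66, 10.46, 10.16 and 10.31 in WT and at 10.18, 9.86, 10.10 and 10.37 in *Sucnr1*-/- mice. *Sucnr1*-/- replicates 1 and 4 lay within the WT range and replicates 2 and 3 below it. The log2 difference was −0.27 (SE 0.14, limma, adjusted p = 0.725, 95% interval from −0.57 to 0.04), with p = 0.171 by the exact permutation test. *Col4a2*, its partner in the α1α1α2 molecule, was at 9.85, 9.71, 9.68 and 9.74 in WT and at 9.59, 9.43, 9.51 and 9.78 in *Sucnr1*-/- mice. Here 3 of the 4 *Sucnr1*-/- mice lay below every WT mouse and replicate 4 lay above 3 of them. The difference was −0.17 (SE 0.09, limma, adjusted p = 0.726). Without *Sucnr1*-/- replicate 4 the differences were −0.35 for *Col4a1* and −0.23 for *Col4a2* (limma, adjusted p = 0.884 for both), and both then lay under an unadjusted 0.05, as did *Col4a1* without WT replicate 3 (−0.35). They were smaller without *Sucnr1*-/- replicate 2, at −0.18 and −0.12, and without WT replicate 1, at −0.18 and −0.13. *Col4a3* and *Col4a4*, chains of kidney and lung basement membranes, were dim at means between 5.74 and 5.84 and differed by 0.11 (SE 0.07) and −0.01 (SE 0.08). *Col4a5* and *Col4a6*, which lie side by side on the X chromosome, were at 0.10 (SE 0.11) and −0.06 (SE 0.15).

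Type VI collagen, the beaded filament around adipocytes, gave the chain with the lowest relative mean in *Sucnr1*-/- mice. *Col6a5*, one of the chains that can take the place of α3(VI), was at 8.12, 9.07, 8.88 and 8.35 in WT and at 7.54, 8.09, 8.01 and 8.00 in *Sucnr1*-/- mice. All 4 *Sucnr1*-/- mice lay below all 4 WT mice, with *Sucnr1*-/- replicate 2 just under WT replicate 1. The log2 difference was −0.70 (SE 0.22, limma, adjusted p = 0.712), or 0.617 times the WT signal, with a 95% interval from −1.19 to −0.20. By exact permutation p was 0.0286, the lowest value possible with groups of 4. Groups did not overlap for 3 of the 42 chains, *Col6a5* below and *Col10a1* and *Col13a1* above, compared with 4.24% of all genes (2.37% above, 1.87% below). A second, dimmer probe set of *Col6a5* differed by −0.36. The main filament chains had slightly higher means, a contrast with *Col6a5* that was not tested. *Col6a1* was at 9.83, 9.76, 9.94 and 9.86 in WT and at 9.84, 9.99, 9.99 and 10.27 in *Sucnr1*-/- mice, a difference of 0.17 (SE 0.09, limma, adjusted p = 0.728). *Col6a2* was at 9.62, 9.56, 9.71 and 9.72 in WT and at 9.61, 9.72, 9.78 and 9.97 in *Sucnr1*-/- mice, a difference of 0.12 (SE 0.09). For both, *Sucnr1*-/- replicate 4 was the highest mouse. Replicates 2 and 3 also lay above every WT mouse, replicate 2 only just for *Col6a2* (9.725 against 9.718). The groups overlapped through *Sucnr1*-/- replicate 1, which lay within the WT range. Without *Sucnr1*-/- replicate 4 the differences were 0.090 for *Col6a1* and 0.053 for *Col6a2*. *Col6a3*, whose cleaved C-terminal fragment is the adipose signal endotrophin, was at 8.63, 8.65, 7.92 and 8.10 in WT and at 8.43, 8.26, 8.32 and 8.56 in *Sucnr1*-/- mice. The WT mice spread more widely (SD 0.37, n = 4) than the *Sucnr1*-/- mice (SD 0.13, n = 4), which all lay within the WT range. The difference was 0.07 (SE 0.17, limma, adjusted p = 0.928), with a 95% interval from −0.32 to 0.46, and it was −0.069 without WT replicate 3. *Col6a4* and *Col6a6*, the other chains able to replace α3(VI), differed by 0.06 (SE 0.08) and 0.23 (SE 0.12), and the second probe set of *Col6a6* differed by −0.11.

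**Figure D3:**
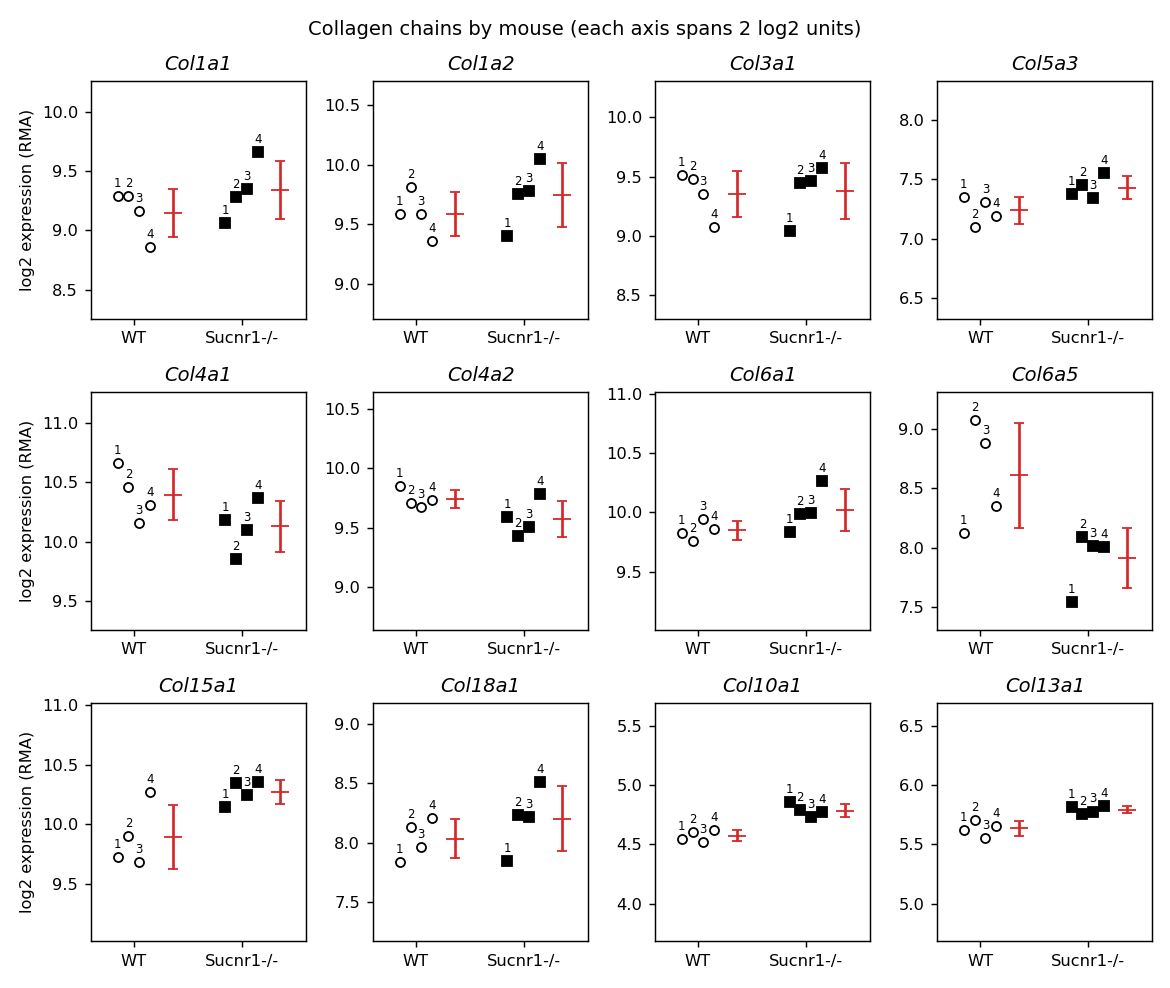
Log2 expression (RMA, vertical axis, spanning 2 log2 units in each panel) of 12 collagen chains in WT (open circles) and *Sucnr1*-/- mice (filled squares), 1 point per mouse with its replicate number, and the mean and SD of 4 mice in red. The groups are apart for *Col6a5*, *Col10a1* and *Col13a1* and overlap for the other 9 chains.

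The multiplexins, basement membrane collagens with glycosaminoglycan chains and an anti-angiogenic C-terminal fragment, both had higher means. *Col15a1*, found in the basement membranes of fat and muscle, was at 9.72, 9.90, 9.68 and 10.27 in WT and at 10.14, 10.34, 10.25 and 10.35 in *Sucnr1*-/- mice. All *Sucnr1*-/- mice lay above WT replicates 1, 2 and 3, and WT replicate 4 lay among them. The log2 difference was 0.38 (SE 0.13, limma, adjusted p = 0.712), 1.30 times the WT signal, with a 95% interval from 0.09 to 0.67 and p = 0.0857 by the exact permutation test. It was 0.50 without WT replicate 4. *Col18a1*, the source of endostatin, was at 7.83, 8.13, 7.97 and 8.20 in WT and at 7.85, 8.23, 8.21 and 8.51 in *Sucnr1*-/- mice. Replicate 1 was the lowest mouse of each group, and the difference was 0.17 (SE 0.14, limma, adjusted p = 0.778). It was 0.064 without *Sucnr1*-/- replicate 4, 0.10 without WT replicate 1 and 0.28 without *Sucnr1*-/- replicate 1, when it lay under an unadjusted 0.05.

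The other 2 chains whose groups did not overlap, *Col10a1* and *Col13a1*, were dim and differed little. *Col10a1*, the short-chain collagen of hypertrophic cartilage, was at 4.54, 4.61, 4.52 and 4.62 in WT and at 4.85, 4.79, 4.73 and 4.77 in *Sucnr1*-/- mice. The groups were separate, at a low signal, since only 19.8% of genes had a lower mean. Its log2 difference was 0.21 (SE 0.06, limma, adjusted p = 0.712, exact permutation p = 0.0286). *Col13a1*, a transmembrane collagen of cell adhesion sites, was at 5.62, 5.71, 5.56 and 5.65 in WT and at 5.82, 5.76, 5.78 and 5.82 in *Sucnr1*-/- mice. All *Sucnr1*-/- mice lay above all WT mice. The difference was 0.16 (SE 0.06, limma, adjusted p = 0.712, exact permutation p = 0.0286). The remaining transmembrane chains *Col17a1*, *Col23a1* and *Col25a1* lay between 0.00 and 0.08. *Col8a1* and *Col8a2*, network collagens of vessels and the eye, differed by −0.06 (SE 0.19) and 0.14 (SE 0.11).

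The FACIT collagens, which sit on the surface of fibrils, had 6 of 8 higher means and a median log2 difference of 0.10. *Col12a1*, one of them, had the second lowest difference of all chains, −0.43 (SE 0.27, limma, adjusted p = 0.743, 95% interval from −1.04 to 0.19). It was at 8.11, 8.07, 7.82 and 9.10 in WT and at 8.11, 7.43, 8.03 and 7.81 in *Sucnr1*-/- mice. WT replicate 4 stood above the other 7 mice, which overlapped. *Col14a1*, a regulator of fibril growth, lay between 9.26 and 9.72 over all mice and differed by 0.08 (SE 0.11). *Col20a1* differed by 0.22 (SE 0.12) with its brighter probe set and by −0.05 with the dimmer one. *Col16a1* was at −0.02 (SE 0.09) and *Col9a1*, *Col9a2*, *Col19a1* and *Col22a1* lay between 0.09 and 0.15. The small collagens *Col26a1* and *Col28a1* were at −0.09 (SE 0.08) and −0.08 (SE 0.11).

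Chains that assemble together were then compared across the 8 mice, in 12 pairs of chains that share a molecule or a fibre. Other pairs of chains were not correlated, so whether partners vary together more than other chains was not tested. Of the 12 pairs, *Col6a1* and *Col6a2*, obligate partners, varied together most closely, with Pearson's r = 0.97 (exact permutation of pairings, adjusted p = 0.00179) and Spearman's rho = 0.95 (exact permutation, adjusted p = 0.0137). *Col1a1* and *Col1a2* had r = 0.94 (exact permutation, adjusted p = 0.00268) and rho = 0.90 (exact permutation, adjusted p = 0.0183). *Col4a1* and *Col4a2* had r = 0.92 (exact permutation, adjusted p = 0.00387) and rho = 0.90 (exact permutation, adjusted p = 0.0183). *Col1a1* and *Col3a1*, whose products share fibrils, had r = 0.86 (exact permutation, adjusted p = 0.00377) and rho = 0.88 (exact permutation, adjusted p = 0.0217). These 4 pairs stayed under 0.05 after the mean of each genotype was subtracted, with r of 0.97, 0.93, 0.88 and 0.93 in the same order. Leaving out the 2 mice farthest from the median of the first chain gave r of 0.86, 0.87, 0.78 and 0.92 over 6 mice. Without WT replicate 4 alone, *Col1a1* and *Col3a1* no longer passed (r = 0.78, exact permutation, adjusted p = 0.172). Within a genotype there are 4 mice, too few for a correlation of its own.

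The other 8 pairs did not reach 0.05. For *Col6a3* and *Col6a1*, which can join in the same filament, no relation was detected (r = −0.05, exact permutation, adjusted p = 0.976, and rho = −0.43, exact permutation, adjusted p = 0.449). Their r was −0.44 without the 2 farthest mice. *Col5a1* had r = 0.61 with *Col1a1* (exact permutation, adjusted p = 0.232; rho = 0.38, exact permutation, adjusted p = 0.480), which was 0.31 without *Sucnr1*-/- replicate 4 and WT replicate 4. *Col4a5* and *Col4a6* had r = 0.65 (exact permutation, adjusted p = 0.204; rho = 0.67, exact permutation, adjusted p = 0.199), and 0.12 without the 2 farthest mice. The remaining 5 pairs had r between 0.01 and 0.51, and only *Col4a3* with *Col4a4* had both chains in the dimmest 40% of genes.

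**Figure D4:**
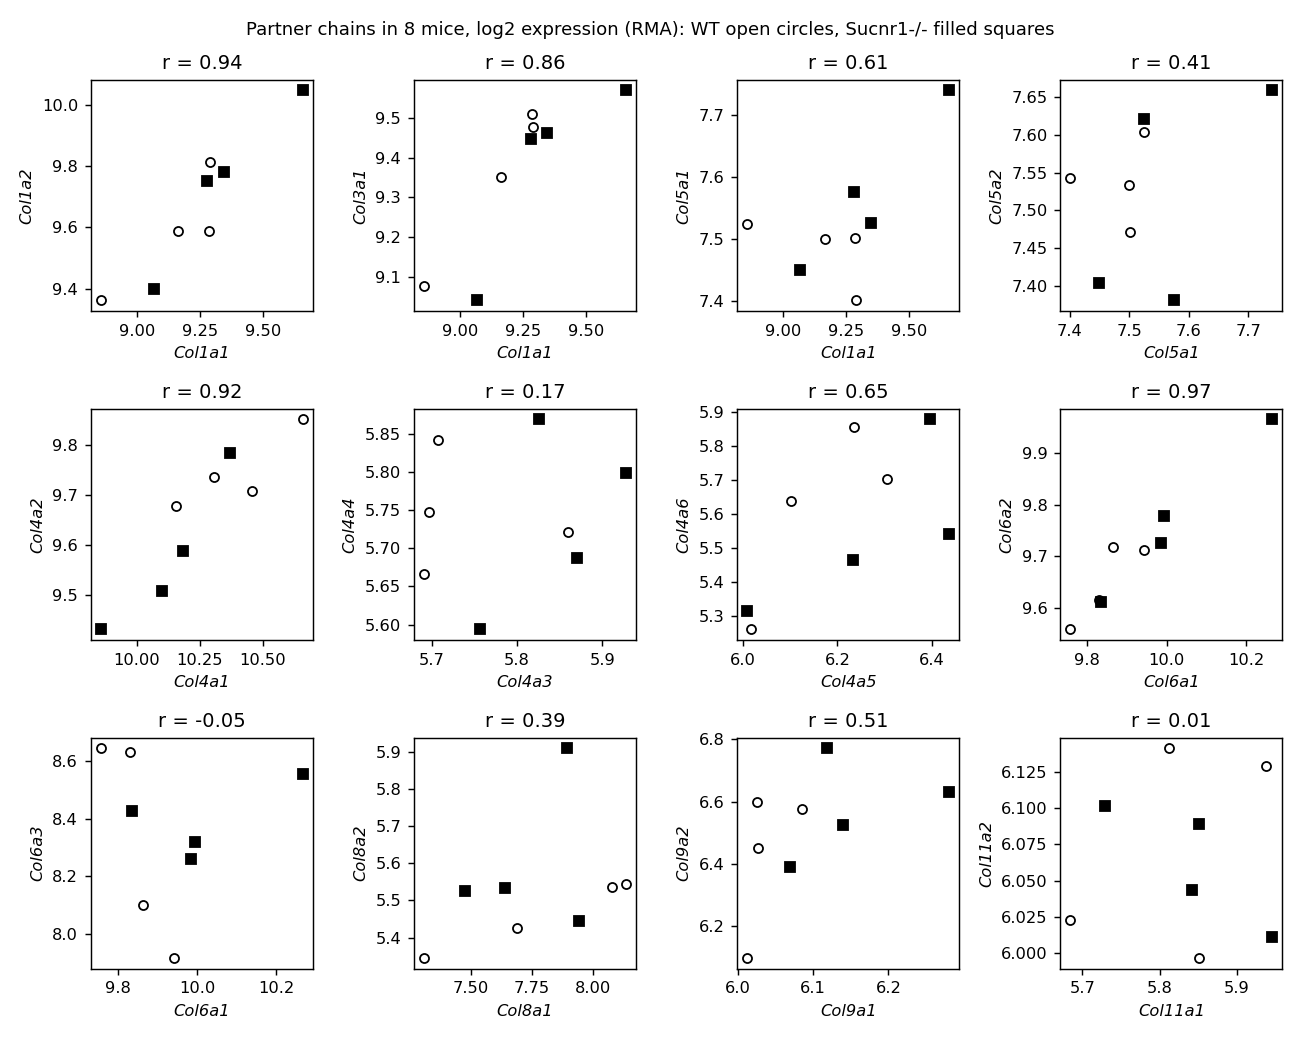
Log2 expression (RMA) of 12 pairs of partner chains, the first chain on the horizontal and the second on the vertical axis, 1 point per mouse (open circles WT, filled squares *Sucnr1*-/-), and Pearson's r above each panel. Points follow a line for *Col6a1* with *Col6a2* (0.97), *Col1a1* with *Col1a2* (0.94), *Col4a1* with *Col4a2* (0.92) and *Col1a1* with *Col3a1* (0.86), and scatter for *Col6a1* with *Col6a3* (−0.05).

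The 250 bases before the start are shown for 4 chains of the pairs that varied together, from RefSeq (mouse build GRCm38.p6). *Col4a1* and *Col4a2* start head to head, so each window lies within the other's annotated gene, and neither is shown. Capitals mark the CCAAT box, the GC box GGGCGG and the TATA sequence TATAAA, each searched on both strands, and all sequences read 5′ to 3′ along the gene.
*Col1a2*, chr6:4505368-4505617, plus strand: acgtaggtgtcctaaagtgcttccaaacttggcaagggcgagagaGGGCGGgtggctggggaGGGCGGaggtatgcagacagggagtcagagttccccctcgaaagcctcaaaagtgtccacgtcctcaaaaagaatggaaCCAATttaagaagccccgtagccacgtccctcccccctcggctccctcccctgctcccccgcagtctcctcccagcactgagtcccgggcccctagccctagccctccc
*Col3a1*, chr1:45311288-45311537, plus strand: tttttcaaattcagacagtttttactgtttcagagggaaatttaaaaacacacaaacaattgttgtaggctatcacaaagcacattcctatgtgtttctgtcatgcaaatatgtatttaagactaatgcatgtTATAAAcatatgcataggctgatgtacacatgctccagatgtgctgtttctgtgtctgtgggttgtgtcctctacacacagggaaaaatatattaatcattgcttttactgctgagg
*Col6a1*, chr10:76726045-76726294, minus strand: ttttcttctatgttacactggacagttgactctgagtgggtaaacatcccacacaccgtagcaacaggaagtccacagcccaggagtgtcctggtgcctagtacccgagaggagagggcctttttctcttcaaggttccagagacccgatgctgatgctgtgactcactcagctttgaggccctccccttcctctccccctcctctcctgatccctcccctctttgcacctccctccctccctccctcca
*Col6a2*, chr10:76623631-76623880, minus strand: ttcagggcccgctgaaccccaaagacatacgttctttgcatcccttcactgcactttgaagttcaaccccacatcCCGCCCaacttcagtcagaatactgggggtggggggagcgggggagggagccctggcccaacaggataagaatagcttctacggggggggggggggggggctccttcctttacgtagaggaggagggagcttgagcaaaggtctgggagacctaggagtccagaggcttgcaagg

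The 4 windows held different letters. The *Col1a2* window had 1 CCAAT box, 109 bases before the start, and 2 GC boxes. The *Col3a1* window had 1 TATAAA, 117 bases before the start, and a GC content of 35.2%, against 62.0% for *Col1a2*. The *Col6a1* window held none of the 3 motifs and the *Col6a2* window shown 1 GC box, on the other strand. *Col6a2* has a second annotated start, within the gene, whose window held 3 GC boxes and is not shown. Windows of this length were given for 34 of the 42 chains (37 windows). CCAAT was in 32.4% of them, GGGCGG in 56.8% and TATAAA in 13.5%. Of all 32851 RefSeq windows 33.8% held CCAAT, 32.7% GGGCGG and 12.4% TATAAA, and GGGCGG was in 45.9% of the windows of genes measured on the arrays. A match is a run of letters and not a bound site.

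Genes that make, join, bind and break down collagen showed mostly lower means in *Sucnr1*-/- mice, and none passed at an adjusted p under 0.05 (limma). Of 93 measured gene entries in 9 lists 62 had a lower mean (66.7%), with a median log2 difference of −0.05. Over all genes 46.8% had a lower mean, and of the brighter 60% of genes 54.0% did. Before adjustment 7 lay under 0.05 (7.53%, against 6.82% of all genes). All 7 were lower (3.36% of all genes were lower under that limit), and 0 were higher. The count was 4 without *Sucnr1*-/- replicate 2 and 16 with the replicate number as a block. For enzymes that modify and fold chains inside the cell, 13 of 16 had a lower mean (median −0.05), with 1 under the unadjusted limit. It was *Colgalt1*, which adds galactose to hydroxylysine, at −0.21 (SE 0.08, limma, adjusted p = 0.712). Of 7 gene entries for the export of procollagen 6 were lower (median −0.09). *Ctage5*, a partner in loading large cargo at the endoplasmic reticulum, was at 10.38, 10.46, 10.47 and 10.47 in WT and at 10.33, 10.30, 10.30 and 10.13 in *Sucnr1*-/- mice. The groups did not overlap, at a difference of −0.18 (SE 0.06, limma, adjusted p = 0.712). *Ctage5* is an older name of *Mia2*, so this gene was counted under both names. The *Mia2* entry was dim, with 9.0% of genes dimmer. Its groups overlapped, at a difference of −0.24 (SE 0.27). Of 7 genes that cut off the propeptides 5 were lower (median −0.03). The smallest p among them belonged to the proteinase *Tll1*, at −0.31 (SE 0.20).

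Of 5 crosslinking enzymes 4 had a lower mean (median −0.23), with *Tgm2*, a transglutaminase, at −0.18 (SE 0.08), and none lay under the unadjusted limit. Of 14 fibril partners such as small proteoglycans 8 were lower and 6 higher (median −0.02), with *Aspn*, a small leucine-rich protein of fibrils, at 0.23 (SE 0.11). Of 14 partners of the basement membrane 11 had a higher mean (median 0.08), with *Lama1*, a laminin chain, at 0.14 (SE 0.07). Of 11 genes for TGFβ and its signalling 8 were lower (median −0.10), with *Tgfbr1*, the signalling receptor, at −0.53 (SE 0.16, limma, adjusted p = 0.712). It was at 9.62, 9.50, 9.01 and 9.32 in WT and at 9.16, 8.57, 8.90 and 8.71 in *Sucnr1*-/- mice, and the groups overlapped through WT replicate 3.

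Receptors and proteases of collagen turnover had the widest differences. Of 11 receptor and uptake genes 8 had a lower mean (median −0.08). *Mrc2*, the endocytic receptor that takes up cleaved collagen, was at 8.63, 8.12, 8.90 and 9.35 in WT and at 8.08, 7.96, 8.21 and 8.00 in *Sucnr1*-/- mice. WT replicate 2 lay among the *Sucnr1*-/- mice and the other WT mice above them. The log2 difference was −0.69 (SE 0.22, limma, adjusted p = 0.712, exact permutation p = 0.0571). *Lair1*, an inhibitory collagen receptor of leucocytes, was at −0.38 (SE 0.15, limma, adjusted p = 0.712). Of 8 collagen-cleaving enzymes 7 were lower (median −0.26). Their mean lay between 7.82 and 8.70 in WT and between 7.65 and 8.23 in *Sucnr1*-/- mice, so the groups overlapped. WT replicate 1 was the highest mouse, 0.56 above the WT mean. *Ctsk*, the collagen-degrading cathepsin K, was at 8.93, 8.45, 8.69 and 8.43 in WT and at 8.02, 7.98, 8.22 and 8.40 in *Sucnr1*-/- mice. The groups did not overlap, with *Sucnr1*-/- replicate 4 just under the lowest WT mice. Its difference was −0.47 (SE 0.14, limma, adjusted p = 0.712, exact permutation p = 0.0286). *Ctsl*, a lysosomal cathepsin, was at −0.20 (SE 0.08, limma, adjusted p = 0.712).

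Macrophage markers had lower means beside these turnover genes, and macrophages are known to express *Lair1* and cathepsins. *Adgre1*, which encodes F4/80, was at 10.30, 10.10, 10.70 and 10.07 in WT and at 9.87, 9.59, 9.76 and 9.94 in *Sucnr1*-/- mice. Its log2 difference was −0.50 (SE 0.15, limma, adjusted p = 0.712), and that of *Cd68* −0.49 (SE 0.15, limma, adjusted p = 0.712). The mean of the 8 macrophage markers lay between 10.60 and 10.97 in WT and between 10.14 and 10.60 in *Sucnr1*-/- mice. The part of macrophage RNA in the turnover genes was not tested. The mean of the 8 fibroblast and progenitor markers lay between 9.68 and 10.00 in WT and between 9.63 and 9.89 in *Sucnr1*-/- mice, with *Pdgfra* at −0.34 (SE 0.22) and *Pdgfrb* at −0.16 (SE 0.14). Endothelial markers lay between 9.78 and 10.29 and between 9.81 and 10.03, with *Pecam1* at −0.10 (SE 0.12) and *Cdh5* at −0.06 (SE 0.10). Of 8 mural and smooth muscle markers 4 were higher and 4 lower (median 0.01), with *Rgs5* at 0.36 (SE 0.18) and *Cspg4* at 0.33 (SE 0.15). Their mean lay between 8.59 and 9.55 in WT and between 8.68 and 9.79 in *Sucnr1*-/- mice. Of 6 mesothelial markers 5 were lower, with *Msln* at −0.09 (SE 0.31). None of the 8 fibroblast, 8 endothelial, 8 mural and 6 mesothelial markers lay under an unadjusted 0.05, against 4 of 8 macrophage markers. Over all genes 6.82% lay under that limit. Of 10 adipocyte markers 9 had a higher mean (median 0.07), and 1 lay under the limit.

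**Figure D5:**
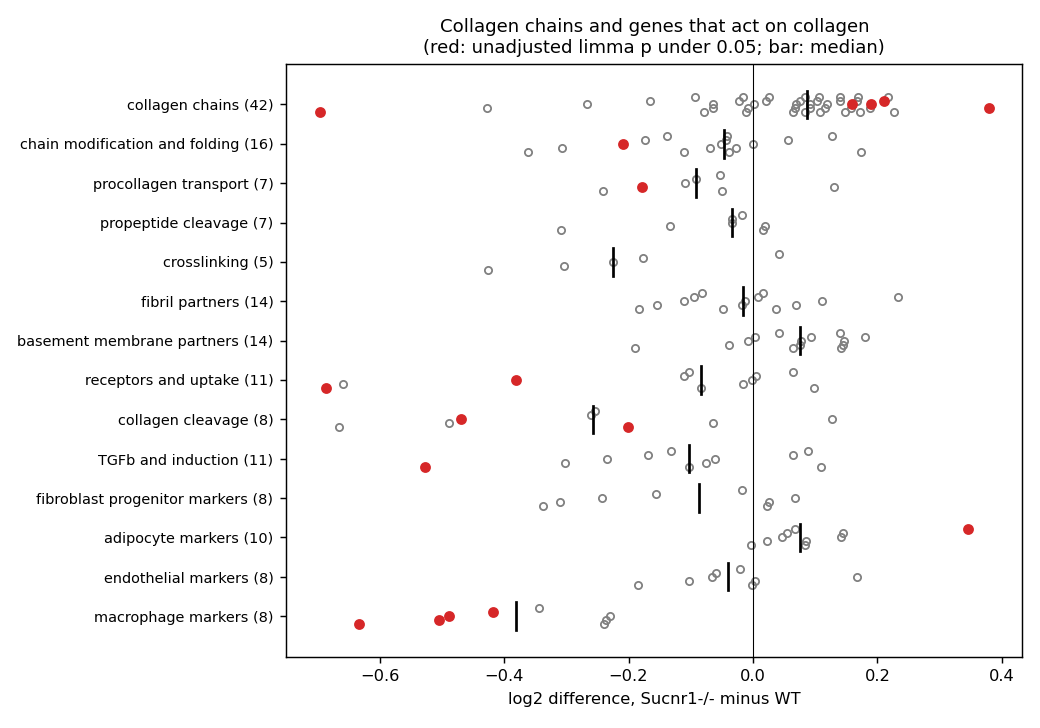
Log2 difference between *Sucnr1*-/- and WT mice (horizontal axis) for the collagen chains, for 9 lists of genes that act on collagen and for 4 lists of cell type markers (rows, number of genes in brackets), 1 point per gene, red where the unadjusted limma p lay under 0.05, with a bar at the median. The median lies at 0.09 for the chains, at −0.26 for collagen cleavage and at −0.38 for macrophage markers, and no gene passed after adjustment.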

How the data were processed

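Fat pad RNA from 4 WT and 4 *Sucnr1*-/- mice was hybridised to 1 array per mouse. The deposited log2 values were made by the authors with RMA, named in the submitters' processing notes, a method that subtracts background, equalises the arrays and combines the probes of each set. It removes differences in total signal and compresses low values. Its version and the genome build are not given in the sources used here. Scan dates and background signals were not analysed here, so batches were not examined. The number of arrays limits the precision.

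Of 35556 probe sets, 21218 carried a single gene symbol and were used. Those with several symbols (1881) or none (12457) were left out, and the brightest probe set stood for each of 18820 genes. For 4 chains there was more than 1 probe set. By Entrez ID 21185 probe sets matched RefSeq (GRCm38.p6), with 0 symbols renamed. Genotype was read from the labels, and each array is a separate mouse.

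Differences were fitted with lmFit and eBayes of limma 3.58.1 (R 4.3.3, 2.66 prior degrees of freedom), and p-values were Benjamini-Hochberg adjusted across the 18820 genes at a limit of 0.05. Exact permutation tests were two-sided and used all 70 splits of the 8 mice, or all pairings for correlations, adjusted over 12 pairs (Python 3.11.15, scipy 1.17.1). Figures were drawn with matplotlib 3.10.9. The fit was tested on simulated data with known changes. No list was tested as a set.

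The members and gene lists were chosen with earlier results of these data known. Any chain could be named. Values in all mice were given for the main chains of fat and for chains under an unadjusted 0.05 or without overlap. Each pathway list gave its genes under that limit (at most 3) or the one of smallest p, and each marker list its first 2 measured genes. *Col12a1* was given in all mice after its values were seen.

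Alternatives were an intensity-dependent prior, array weights, dropping the dimmest 40% of genes, centring on the median, quantile normalization, a block for the replicate number, averaging the probe sets of a gene, the methods' t-test, leaving out each mouse, and leaving out replicate 1 of both groups. Some listed genes are not analysed here.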

Additional observations from a re-analysis of the deposited data

Results flagged for a closer look

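In 3 of 84 groups of 4 mice (42 chains, 2 genotypes) 1 mouse stood far from the other 3, where chance flags about 1 in 20 groups. *Col6a5* in *Sucnr1*-/- replicate 1 was at 7.54, against 8.00 to 8.09 in the other *Sucnr1*-/- mice. Without this mouse the log2 difference of *Col6a5* was −0.57. *Col4a3* in WT replicate 2 was at 5.86, against 5.69 to 5.71 in the other WT mice. *Col28a1* in *Sucnr1*-/- replicate 4 was at 6.36, against 5.91 to 5.98 in the others.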

How the results depend on the processing

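No collagen chain passed an adjusted p under 0.05 in any of the 17 alternative fits (3 to 7 passed before adjustment), and the median difference of the chains lay between 0.06 and 0.14. Of 15 chains followed, 13 kept their sign throughout. The exceptions with a mouse left out were *Col3a1*, from −0.067 (without WT replicate 4) to 0.14, with −0.0014 without *Sucnr1*-/- replicate 3 and −0.04 without *Sucnr1*-/- replicate 4, and *Col6a3*, from −0.069 (without WT replicate 3) to 0.17, with −0.0076 without WT replicate 4. With dim genes left out, 28 chains were tested, of which 3 lay under an unadjusted 0.05, 19 had a higher mean and 1 had no overlap. Chains without overlap numbered 3 to 8 with 1 mouse left out and 10 without replicate 1 of both groups, as fewer mice overlap less often. Pathway genes under an unadjusted 0.05 numbered 4 to 9 with 1 mouse left out (4 without *Sucnr1*-/- replicate 2) and 16 with the replicate number as a block. After median centring 34 chains had a higher mean, with the median of all genes at 0.05. Deviations of same-numbered mice correlated at 0.45, 0.14, 0.11 and 0.01, the last of them under the 0.1 asked of every pair, and 4 of 8 mice correlated best with their own number, so the mice were taken to share only a number. With the replicate block 4 chains lay under an unadjusted 0.05, without *Col5a3* and *Col13a1*, and over all genes 1905 did (808 without *Sucnr1*-/- replicate 2).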
